A study of Mus musculus with 13 samples.

Results

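The genes described here are 39 genes of the DNA replication machinery in mouse polycystic kidneys, chosen by name from a list of replication factors, nucleotide synthesis enzymes, maintenance methylation genes and S phase regulators. All 39 were found by symbol among the 28183 genes of the kidney table, and all 39 passed the filter on low values that left 14637 genes to test. Of the same symbols, 7 had a row in the table of 2016 genes deposited for cultured cells.

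Before a cell divides, the MCM helicase is loaded onto origins of replication by CDC6 and CDT1, and it is switched on by CDC45 and the GINS complex. Polymerase alpha with its primase then lays down primers, the epsilon and delta polymerases copy the strands while tethered to the PCNA clamp, and FEN1 and ligase I join the Okazaki fragments. Many of these genes are transcribed by E2F factors as cells enter S phase. The postnatal mouse kidney still grows by cell division, and tubule cells of polycystic kidneys are known to divide more than those of normal kidneys.

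The kidney RNA-seq held 8 libraries of C57BL/6 mice in 4 groups of 2. At postnatal day 10 the groups were Pkd1 f/f controls without Cre (KSP/Cre-;Pkd1f/f) and Pkd1 knockouts (KSP/Cre+;Pkd1f/f). At postnatal day 20 they were Pkd2 f/f controls without Cre (Pkhd1/Cre-;Pkd2f/f) and Pkd2 knockouts (Pkhd1/Cre+;Pkd2f/f). Every animal carried the floxed alleles of its model, and the Cre drivers act in kidney tubules (Ksp-cadherin promoter) or mainly in the collecting duct (Pkhd1 promoter), so that the whole kidney also held cells in which neither gene was deleted. The cell libraries came from mIMCD-3, a mouse inner medullary collecting duct line, given 10 nM of a control gapmer (2 libraries) or of one that targets Hoxb3os, a long noncoding RNA (3 libraries), and collected 48 h later. A gapmer is an antisense oligonucleotide that leads to cleavage of its target RNA.

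Depth as recovered from the deposited values was 30.7 to 94.4 M reads a kidney library. The lowest count behind a value of a replication gene was 12 reads (Ccne1), and the next lowest was 26 (Gins1 and Gins3). The deposited values are reads scaled to library size, and "value" below means that unit. The floxed genes were not called as whole-gene values in their knockouts: Pkd1 changed by -0.08 ± 0.20 log2 (limma adjusted p = 0.82) and Pkd2 by -0.32 ± 0.21 (adjusted p = 0.33). A value over a whole gene in whole kidney does not check the deletion of a few exons in some tubules. Hoxb3os had no row in the cell table. Markers of proximal tubule, thick ascending limb, distal tubule, collecting duct and podocytes were present in every kidney library. The labels do not say whether the 2 libraries of a group were separate animals, so the p-values measure the spread between these libraries. Xist, an RNA of female cells, stood at 0.221 and 416 in the day 10 controls and at 1.74 and 449 in the Pkd2 knockouts. Y-linked genes summed to 155 and 10.4, and to 169 and 0.0462. In these groups the libraries differed in sex markers, so they were not repeats of the same animal and their spread includes sex. In day 10 control 2, Xist at 416 stood beside a Y-linked sum of 10.4, where the day 20 controls had sums of 0.104 and 0.0221. The labels do not say whether that library holds RNA of more than 1 animal. In the day 20 controls and the Pkd1 knockouts the spread may be technical.

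Since E2F factors are the textbook regulators of these genes, the 250 bases before the annotated starts were searched for the E2F words TTTCCCGC, TTTCGCGC, TTTGCCGC and TTTGGCGC on both strands. RefSeq promoters of build GRCm38.p6 were at hand for 31 of the 39 genes. At least 1 E2F word stood before a start of 9 of the 31 genes (29%), against 2.16% of all 27025 genes and 1.86% of all 32851 promoters in the RefSeq table. The 9 genes were Cdc6, Dnmt1, Gins3, Mcm5, Mcm6, Mcm7, Pola1, Rfc3 and Uhrf1. The word CCAAT stood in 61.3% of the 31 genes and in 37.5% of all genes, and TTTGAA, the core of the element that marks later cell cycle genes, in 16.1% and 18.3%. The promoter of Mcm6 is shown whole because it held 3 E2F words, the first pair overlapping on opposite strands. It lies on the minus strand at chr1:128359706-128359955, upstream of the gene, and capitals mark the E2F words.
Mcm6: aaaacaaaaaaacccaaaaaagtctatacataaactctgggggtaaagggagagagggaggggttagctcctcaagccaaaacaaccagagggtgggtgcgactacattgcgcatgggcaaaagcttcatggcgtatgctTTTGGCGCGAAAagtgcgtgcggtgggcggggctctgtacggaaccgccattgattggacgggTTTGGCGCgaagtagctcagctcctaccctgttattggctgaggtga

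The promoter of Mcm5, on the plus strand at chr8:75109259-75109508 and upstream of the gene, held a pair of E2F words that overlap in the same way, and is shown beside Mcm6 because both are subunits of 1 helicase.
Mcm5: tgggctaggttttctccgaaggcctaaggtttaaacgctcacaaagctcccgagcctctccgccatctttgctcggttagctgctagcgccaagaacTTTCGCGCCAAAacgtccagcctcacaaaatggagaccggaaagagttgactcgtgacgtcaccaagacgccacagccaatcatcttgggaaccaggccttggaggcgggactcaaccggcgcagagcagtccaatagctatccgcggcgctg

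For Cdc6 and Uhrf1, which also changed in both kidney comparisons described below, the 30 bases around the word are shown. Both words lie in an intron of the gene as annotated by GENCODE, ahead of an alternative start: Cdc6 at chr11:98908002-98908031 (plus strand) and Uhrf1 at chr17:56304117-56304146 (plus strand). For Pola1, the polymerase gene with the largest fall in the cells, the word lies upstream of the gene at chrX:93632275-93632304 (minus strand).
Cdc6: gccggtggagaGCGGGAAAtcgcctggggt
Uhrf1: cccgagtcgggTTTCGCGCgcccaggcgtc
Pola1: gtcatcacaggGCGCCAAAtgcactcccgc
These matches describe the letters of the windows and are not binding sites shown by data.

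Across the kidney libraries, the replication genes were highest at day 10, lowest in the day 20 controls and between these levels in the Pkd2 knockouts. Summed over the 39 genes, the values came to 689 and 669 in the day 10 controls and to 868 and 670.3 in the Pkd1 knockouts. They came to 315 and 296 in the day 20 controls and to 417 and 472 in the Pkd2 knockouts. The 2 Pkd2 knockouts thus lay above both day 20 controls and below both day 10 controls, and 1 Pkd1 knockout stood above the rest while the other lay within the range of its controls. In whole kidney, fewer dividing cells and less of these RNAs per cell cannot be told apart.

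**Figure D1:**
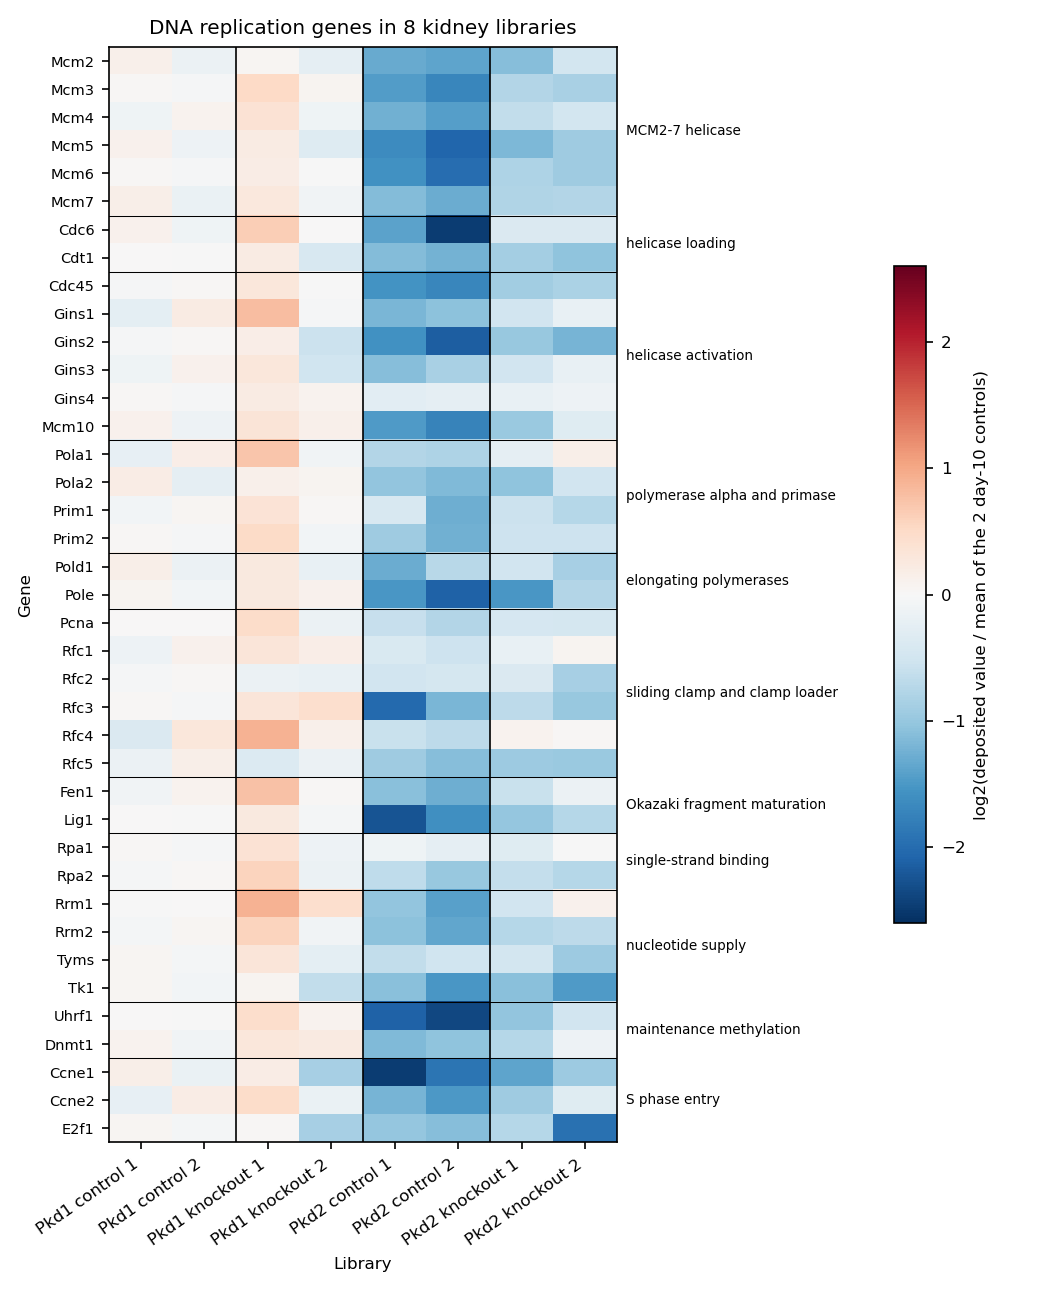
Each cell is the log2 ratio of a gene's deposited value in 1 library to the mean of the 2 day 10 (Pkd1) controls, with the 39 genes in rows grouped by role and the 8 libraries in columns. The day 20 controls are the lowest columns for most genes, with Uhrf1 at 21.4% and Rpa1 at 88.7% of the day 10 control level, and Pkd1 knockout 1 is the highest library for 33 of the 39 genes.

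The comparison of the 2 control groups asks how far the genes fall as the kidney matures. At day 20, 26 of the 39 genes were lower than at day 10 and 0 were higher (limma over all 14637 genes, with calls made under 0.05 after Benjamini-Hochberg adjustment), where 7.26% of all tested genes were called lower and 12.3% were called in either direction. Both day 20 controls lay below both day 10 controls for all 39 genes, against 31.2% of all tested genes. The median log2 fold change was -1.07, against 0.00 over all tested genes, and the values ranged from -2.14 (Uhrf1) to -0.17 (Rpa1). The day 20 controls stood at a median of 44.2% of the day 10 level. Age and the floxed gene differ together between these controls and cannot be told apart, and sex was not balanced, with Y-linked genes summing to 155 and 10.4 at day 10 and to 0.104 and 0.0221 at day 20. The count rests on all 4 control libraries: it was 8 without day 10 control 1, 13 without day 10 control 2, 11 without day 20 control 1 and 7 without day 20 control 2. Cdc45, Lig1, Mcm3, Mcm5, Mcm6 and Uhrf1 were called in every one of the 15 alternatives run.

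Other markers moved with age as well. Of the 5 podocyte markers 4 fell, of the 7 fibroblast and myofibroblast markers 3 fell (summed values 1302 and 901 at day 10, 597 and 636 at day 20), and of the 5 thick ascending limb markers 4 rose (summed values 1098 and 889, then 4278 and 4215). The nephron progenitor marker Six2 was below 0.1 in every library, and the 6 nephron progenitor markers summed to 9.36 and 11.2 at day 10 and to 7.54 and 9.42 at day 20. The part of these shifts in the fall of the replication genes was not tested.

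The comparison of Pkd2 knockouts with their day 20 controls asks which of the genes are altered in the cystic kidney. In the Pkd2 knockouts, 8 genes were higher and 0 lower: the helicase subunits Mcm3, Mcm4 and Mcm6, the helicase loader Cdc6, the initiation factor Mcm10, the ligase Lig1, the reductase subunit Rrm1 and the methylation factor Uhrf1. Over all tested genes, 9.54% were called higher and 17.7% in either direction. Counted in either direction, 8 of 39 is near that share. An unadjusted limma p below 0.05 was found for 16 of the 39 genes (41%), against 33.1% of all tested genes. Both knockouts lay above both controls for 28 of the 39 genes, against 31.9% of all tested genes, and the groups overlapped for the other 11. The median log2 fold change was 0.44, against -0.01 over all tested genes, with 36 values above 0 and 3 below. All 8 genes were also among the 26 lower at day 20 in the controls; the same 2 day 20 control libraries enter both comparisons, so a low value there moves them in opposite directions. Of these 8, RefSeq promoters were at hand for 7, and 3 (Mcm6, Cdc6 and Uhrf1) held an E2F word. Of all 31 replication genes with a promoter 9 (29%) held one, and a link to the calls was not tested.

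This count depends on single libraries more than the median does. It was 2 without Pkd2 knockout 2 (Mcm6 and Uhrf1), 3 without day 20 control 1 (Cdc6, Mcm6 and Uhrf1) and 2 without day 20 control 2 (Lig1 and Uhrf1). It was 4 without day 10 control 1 or 2 (Cdc6, Lig1, Mcm6 and Uhrf1), libraries that enter the shared estimate of the spread. Over all omissions of 1 library the median lay between 0.36 and 0.50, and by edgeR, which does not add 1 to each value, it was 0.67. Uhrf1 was called in 16 of 16 alternatives, Mcm6 in 15, Lig1 in 12 and Cdc6 in 11. The other calls held in fewer: Rrm1 in 8, Mcm4 in 7, Mcm3 in 6 and Mcm10 in 5. In the authors' deposited table, 3 of the genes had an adjusted p below 0.05 for Pkd2: Uhrf1 (0.0015), Cdc6 (0.004) and Rrm1 (0.048).

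Markers of other cells moved in the Pkd2 knockouts too. Of the 10 macrophage markers 9 rose, with summed values of 48.3 and 49.5 in the controls and 212 and 248 in the knockouts. Of the 7 fibroblast and myofibroblast markers 4 rose (597 and 636, then 1290.1 and 1480.0), and all 6 proximal tubule markers fell (2354 and 3128, then 1231 and 904). Of the thick ascending limb markers 3 of 5 fell (4278 and 4215, then 1024 and 881), as did 3 of 4 of the distal convoluted tubule (135 and 183, then 49.9 and 43.1). The brown fat markers Ucp1 and Cidea fell, 2 of 5 (sums of 106 and 148, then 71.7 and 25.3). The 7 T and B lymphocyte markers summed to 3.39 at most in any library, and Cd4, the 1 that was tested, rose by 0.61 ± 0.16 (adjusted p = 0.033) from 0.572 and 0.75 to 1.46 and 1.62. The mitochondrial share of the values was 41.4% and 41.3% in the day 20 controls and 34.7% and 30.1% in the Pkd2 knockouts, against 27.4% and 38.7% in the day 10 controls and 22% and 22.5% in the Pkd1 knockouts. Y-linked genes summed to 0.104 and 0.0221 in the day 20 controls and to 169 and 0.0462 in the Pkd2 knockouts, so sex was not balanced. With the Y-linked sum as a covariate, 9 replication genes were called higher in the Pkd2 knockouts, without Cdc6 and Mcm3, and 16 lower with age. The part of these marker and mitochondrial shifts in the rise of the replication genes was not tested.

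**Figure D2:**
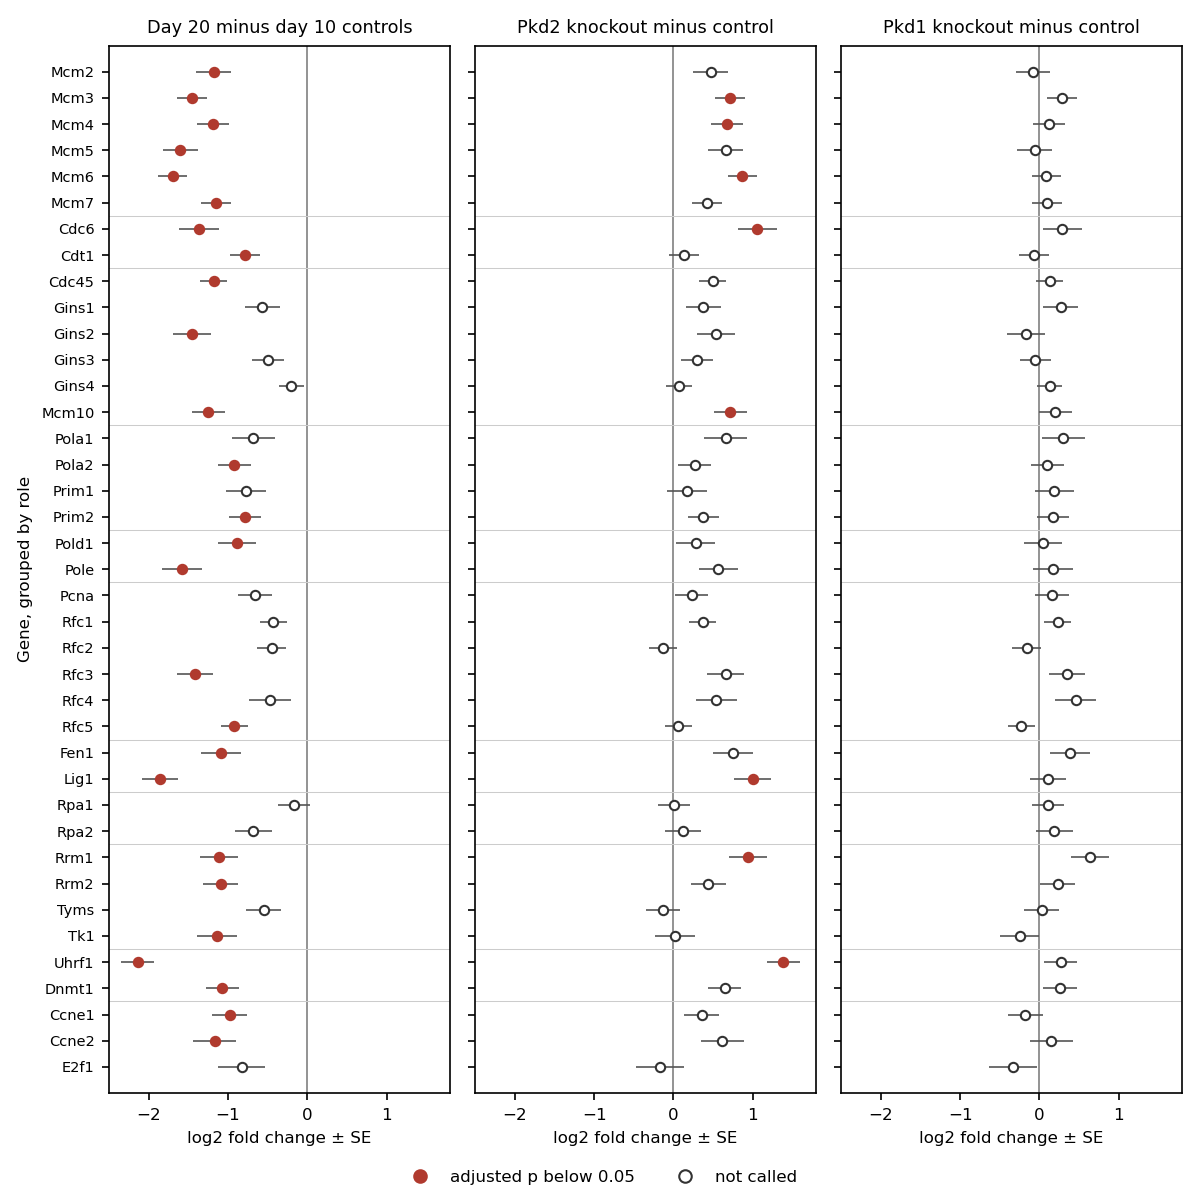
Points are log2 fold changes of the 39 genes on the log2(value + 1) scale with their standard errors, in the comparison of day 20 with day 10 controls, in Pkd2 knockouts and in Pkd1 knockouts. Filled points passed the test (26, 8 and 0 genes), and in the age panel all 39 points lie to the left of 0.

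The Pkd1 knockouts were compared with the day 10 controls. In that comparison 0 of the 39 genes were called, where 10.6% of all tested genes were called. An unadjusted p below 0.05 was found for 1 (Rrm1), or 2.56%, against 27.3% of all tested genes. By edgeR and by DESeq2 on the recovered reads the count was also 0. The median log2 fold change was 0.13, with 29 values above 0 and 10 below, from -0.33 (E2f1) to 0.64 (Rrm1). Both knockouts lay above both controls for 9 genes, against 29.1% of all tested genes, both lay below for 1 (Rfc2), and the groups overlapped for 29. The macrophage markers rose in the Pkd1 knockouts as well, 8 of 10, from summed values of 48.0 and 42.3 to 138 and 135. All 6 proximal tubule markers fell (1623 and 1827, then 515 and 619.7), as did 3 of 6 endothelial, 3 of 5 podocyte and 3 of 4 intercalated cell markers. Y-linked genes summed to 155 and 10.4 in the controls and to 149 and 183 in the knockouts, where Xist, an RNA of female cells, stood at 25.3 and 27.7. Whether a Pkd1 knockout library holds RNA of more than 1 animal is not stated by the labels, and the part of these shifts in the values was not tested.

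The 2 Pkd1 knockouts differed from each other. Pkd1 knockout 1 exceeded Pkd1 knockout 2 for 37 of the 39 genes, by a median of 0.46 log2, while the median over all tested genes was 0.00. Knockout 1 lay above both controls for 34 genes (87.2%, against 41.1% of all tested genes). Knockout 2 lay above both for 9 (23.1%, against 38.3%) and below both for 18 (46.2%, against 40.3%, a share near the background). Without knockout 1 the median log2 fold change was -0.08 with 14 values above 0, and without knockout 2 it was 0.29 with 37 above 0. The sign of the median thus depends on knockout 1. The principal cell markers summed to 58.3 in Pkd1 knockout 1 and 199 in Pkd1 knockout 2, while the macrophage markers summed to 138 and 135. The part of such marker differences in these values was not tested. In the Pkd2 model, 34 genes of knockout 1 and 31 of knockout 2 lay above both controls (87.2% and 79.5%, against 43.1% and 44.3% of all tested genes).

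The difference between the knockout effects, Pkd1 minus Pkd2, was tested in the same fit. None of the 39 genes was called by limma, 4 had an unadjusted p below 0.05 (10.3%, near the 8.25% of all tested genes), and edgeR and DESeq2 also called 0 of them. Over all genes 0.00683% were called, which is 1 gene. The median difference was -0.30, with 34 values below 0. The lowest was Uhrf1, at -1.12 ± 0.30 log2 (adjusted p = 0.28), followed by Lig1 at -0.89 ± 0.32 (adjusted p = 0.45) and Mcm6 at -0.78 ± 0.25 (adjusted p = 0.39). The models differ in age, gene and Cre driver together.

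The 6 subunits of the MCM2-7 ring, the motor of the replicative helicase, all fell with age, by a median of 1.32 on the log2 scale, and 3 of the 6 rose in the Pkd2 knockouts. Mcm6 stood at 45.9 and 43.8 in the day 10 controls and at 51 and 44.6 in the Pkd1 knockouts. It stood at 15 and 11.4 in the day 20 controls and at 25.8 and 23.7 in the Pkd2 knockouts. No group at day 20 reached the day 10 libraries, and the Pkd2 knockouts did not overlap their controls. The change was -1.70 ± 0.18 log2 with age (adjusted p = 0.0011) and 0.87 ± 0.18 in the Pkd2 knockouts (adjusted p = 0.013).

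Mcm3 was at 22.9 and 22 in day 10 controls and 32.2 and 23.5 in Pkd1 knockouts, against 8.16 and 6.88 in day 20 controls and 13.3 and 12.6 in Pkd2 knockouts. It fell by 1.46 ± 0.19 with age (adjusted p = 0.0025) and rose by 0.71 ± 0.19 in the Pkd2 knockouts (adjusted p = 0.033), the groups not overlapping in either comparison. Mcm4 had 12.1 and 14.0, 17.0 and 12, 5.48 and 4.85, and 8.38 and 9.41 by group in that order. Its Pkd2 knockouts lay above both controls, by 0.68 ± 0.20 (adjusted p = 0.047), just inside the threshold. Mcm5 had 14.0 and 11.8, then 14.9 and 10.2, then 4.18 and 3.07, then 5.75 and 6.80. It fell by 1.60 ± 0.22 with age (adjusted p = 0.0034), while its value in the Pkd2 knockouts was 0.66 ± 0.22 (adjusted p = 0.074), above both controls but not called. Mcm2 and Mcm7 fell with age to 39.5% and 43.4% of the day 10 level and were not called in either knockout.

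The subunits are equimolar in the ring, yet their RNAs were not equal per length. In the day 10 controls the value per kb of merged exons was 9.61 for Mcm6, 8.73 for Mcm7, 5.97 for Mcm3, 3.64 for Mcm4, 3.24 for Mcm5 and 1.75 for Mcm2. Merged exons include retained introns and rare exons, which lowers the value per kb of genes annotated with many isoforms. In the day 20 controls Mcm7 stood highest at 3.79 per kb and Mcm6 second at 2.84, and in the Pkd2 knockouts Mcm6 was again first, at 5.31 against 5.13.

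Of the helicase loaders, Cdc6, the ATPase that brings the ring to the origin, changed in both comparisons. Its values were 5.63 and 4.83 in day 10 controls and 8.18 and 5.29 in Pkd1 knockouts, against 1.98 and 0.949 in day 20 controls and 4.01 and 4.02 in Pkd2 knockouts. The 2 day 20 controls differ from each other by more than the 2 Pkd2 knockouts do, and both lie below them. Cdc6 fell by 1.37 ± 0.25 log2 with age (adjusted p = 0.01) and rose by 1.06 ± 0.25 in the Pkd2 knockouts (adjusted p = 0.023), where it reached 76.7% of the day 10 level. Cdt1, its partner in loading, fell with age to 44.2% and was not called in the knockouts.

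Among the 6 genes of helicase activation, 3 fell with age (Cdc45, Gins2 and Mcm10) and 1 rose in the Pkd2 knockouts. Mcm10, which helps the assembled helicase start to unwind, had 6.96 and 5.90 in day 10 controls and 8.07 and 7 in Pkd1 knockouts, against 2.31 and 1.94 in day 20 controls and 3.28 and 5.20 in Pkd2 knockouts. Both Pkd2 knockouts were above both controls, and all 4 day 20 libraries were below the day 10 libraries. Mcm10 fell by 1.25 ± 0.21 with age (adjusted p = 0.0077) and rose by 0.72 ± 0.21 (adjusted p = 0.049), the largest p among the 8 genes called. Cdc45, the helicase cofactor, fell with age to 32.5% of the day 10 level, and its Pkd2 value of 0.50 ± 0.17 log2 was not called (adjusted p = 0.073). Of the GINS subunits, Gins2 fell to 28.1%, while Gins1, Gins3 and Gins4 stood at 45.7%, 51% and 83.9% and were not called; Gins1 and Gins3 had values of at most 2.67, where the added 1 shrinks fold changes.

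Both elongating polymerase genes fell with age, and neither was called in the knockouts. Pole, the catalytic subunit of the leading-strand polymerase epsilon, was at 14.9 and 13.6 in day 10 controls and 16.9 and 15.3 in Pkd1 knockouts, and at 4.96 and 3.31 in day 20 controls and 4.96 and 8.44 in Pkd2 knockouts. Pkd2 knockout 1 was level with the higher control to the digits shown, so the knockout values did not separate from the controls, and the age groups did separate. Pole fell by 1.58 ± 0.25 with age (adjusted p = 0.0057). Pold1, the catalytic subunit of the lagging-strand polymerase delta, fell to 50.9% of the day 10 level.

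Polymerase alpha and primase, which lay down the primers, had 4 genes, of which Pola2 and Prim2 fell with age and 0 were called in the knockouts. Prim1, the primase subunit that makes the RNA primer, had 14.6 and 15.9 in day 10 controls and 19.6 and 15.6 in Pkd1 knockouts, against 11.4 and 6.29 in day 20 controls and 10.3 and 9.13 in Pkd2 knockouts. Its day 20 controls spread widely and enclose both Pkd2 knockouts, and the age value of -0.77 ± 0.25 log2 was not called (adjusted p = 0.084). Pola1, the catalytic subunit, had 9.10 and 11.9, then 17.4 and 9.80, then 6.21 and 6.00, then 8.91 and 11.7 by group in that order. Both Pkd2 knockouts exceeded both controls and their mean was 98.3% of the day 10 control mean, with an adjusted p of 0.12 for the knockout comparison. Pola2, the accessory subunit, had 9.86 and 7.30, 9.39 and 9.02, 4.21 and 3.86, and 4.18 and 6.10, with overlap between Pkd2 knockouts and controls.

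Of the 6 genes of the sliding clamp and its loader, 2 fell with age (Rfc3 and Rfc5) and 0 were called in the knockouts. Pcna, the clamp that tethers the polymerases and a common histological marker of proliferation, had 39.4 and 39.4 in day 10 controls and 54.9 and 35.3 in Pkd1 knockouts, against 25.9 and 23.3 in day 20 controls and 29.2 and 28.7 in Pkd2 knockouts. Both day 20 controls lay below both day 10 controls, at 62.3% of their level, and both Pkd2 knockouts lay above the day 20 controls. The changes were -0.66 ± 0.21 with age (adjusted p = 0.077) and 0.23 ± 0.21 in the Pkd2 knockouts (adjusted p = 0.48), neither called. A processed pseudogene, Pcna-ps2, had values of 2.21 to 5.94, so some reads may be shared between the copies. Rfc1, the large subunit of the clamp loader, had 13.2 and 15.6, 17.8 and 16.3, 11 and 9.86, and 12.6 and 15.2 by group in that order, and was called in no kidney comparison.

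Lig1, the ligase that seals Okazaki fragments, showed the second largest fall with age on the log2(value + 1) scale. As a percentage of the day 10 level, Ccne1 stood lower in the day 20 controls, at 22.4% against 27.1% for Lig1. Ccne1 has low values, where the added 1 shrinks fold changes. Lig1 had 61.7 and 60.1 in day 10 controls and 73.0 and 59.0 in Pkd1 knockouts. It had 12.9 and 20.1 in day 20 controls and 30.2 and 36.3 in Pkd2 knockouts. All 4 day 20 libraries were far below the day 10 ones, and the Pkd2 knockouts lay above both of their controls. Lig1 fell by 1.86 ± 0.23 log2 with age (adjusted p = 0.0019) and rose by 1.00 ± 0.23 in the Pkd2 knockouts (adjusted p = 0.019). Fen1, the nuclease that trims the fragment flap, fell with age to 44.2%, and its Pkd2 value of 0.75 ± 0.25 was not called (adjusted p = 0.068).

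Neither gene of replication protein A, which coats single-stranded DNA, was called in any kidney comparison. Rpa1, its large subunit, which also serves DNA repair, had 34.9 and 33.8 in day 10 controls and 44.3 and 31.3 in Pkd1 knockouts. It had 31.9 and 29.1 in day 20 controls and 27.7 and 33.9 in Pkd2 knockouts. The Pkd2 knockouts lay on either side of their controls, and the day 20 controls were just below those of day 10. The changes of -0.17 ± 0.20 with age (adjusted p = 0.64) and 0.01 ± 0.20 in the Pkd2 knockouts (adjusted p = 0.98) were the smallest in size of the 39 genes in each comparison. Rpa2 stood at 56.7% of the day 10 level in the day 20 controls and was not called.

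Of the 4 nucleotide supply genes, Rrm1, Rrm2 and Tk1 fell with age and Rrm1 rose in the Pkd2 knockouts. Rrm1, the large subunit of ribonucleotide reductase, had 18.6 and 18.7 in day 10 controls and 34.7 and 25.1 in Pkd1 knockouts, against 9.12 and 7.02 in day 20 controls and 13.2 and 20.1 in Pkd2 knockouts. It was above both controls in both knockout groups, and it was the only gene of the 39 with an unadjusted p below 0.05 in the Pkd1 knockouts. The changes were -1.12 ± 0.24 with age (adjusted p = 0.018), 0.94 ± 0.24 in the Pkd2 knockouts (adjusted p = 0.03) and 0.64 ± 0.24 in the Pkd1 knockouts (adjusted p = 0.13). Tyms, which makes thymidylate, had 28.2 and 26.4, 33.9 and 22.8, 17.5 and 19.1, and 19.5 and 14.2, and its Pkd2 knockouts enclosed their controls. Tk1, the thymidine salvage kinase, stayed at 41.6% of the day 10 level in the Pkd2 knockouts, the lowest of the 39 genes, and Rrm2, the small reductase subunit, at 61.1%.

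Maintenance methylation copies DNA methylation onto the new strand, and UHRF1 brings the methyltransferase DNMT1 to hemimethylated sites. Uhrf1 had the largest change of the 39 genes in both comparisons. Its values were 54.3 and 53.4 in day 10 controls and 73.7 and 57.5 in Pkd1 knockouts, against 12.6 and 10.5 in day 20 controls and 26.4 and 37.9 in Pkd2 knockouts. The day 20 controls were at 21.4% of the day 10 level and the Pkd2 knockouts at 59.8%, with no overlap between any of these groups. Uhrf1 fell by 2.14 ± 0.21 log2 with age (adjusted p = 0.001) and rose by 1.39 ± 0.21 in the Pkd2 knockouts (adjusted p = 0.0042), and its value in the Pkd1 knockouts was 0.27 ± 0.21 (adjusted p = 0.46). Dnmt1 had 68.7 and 60.3, 79.3 and 75.6, 29 and 31.2, and 38.8 and 58.6 by group in that order. Both Pkd2 knockouts were above both controls, by 0.65 ± 0.21 (adjusted p = 0.064), and the fall with age to 46.7% was called.

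Of the S phase entry genes, the cyclins Ccne1 and Ccne2 fell with age and E2f1 was not called in any comparison. Ccne2, a cyclin of the kinase CDK2, had 9.79 and 12.9 in day 10 controls and 15.7 and 10.1 in Pkd1 knockouts, against 4.94 and 4.01 in day 20 controls and 5.94 and 9.11 in Pkd2 knockouts. Its Pkd2 knockouts were above both controls and below both day 10 controls. E2f1, the transcription factor itself, changed by -0.17 ± 0.30 in the Pkd2 knockouts (adjusted p = 0.73) and by -0.33 ± 0.30 in the Pkd1 knockouts (adjusted p = 0.52), with a wide spread in each knockout group. Its values ranged from 1.41 to 5.57 over the 8 libraries.

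**Figure D3:**
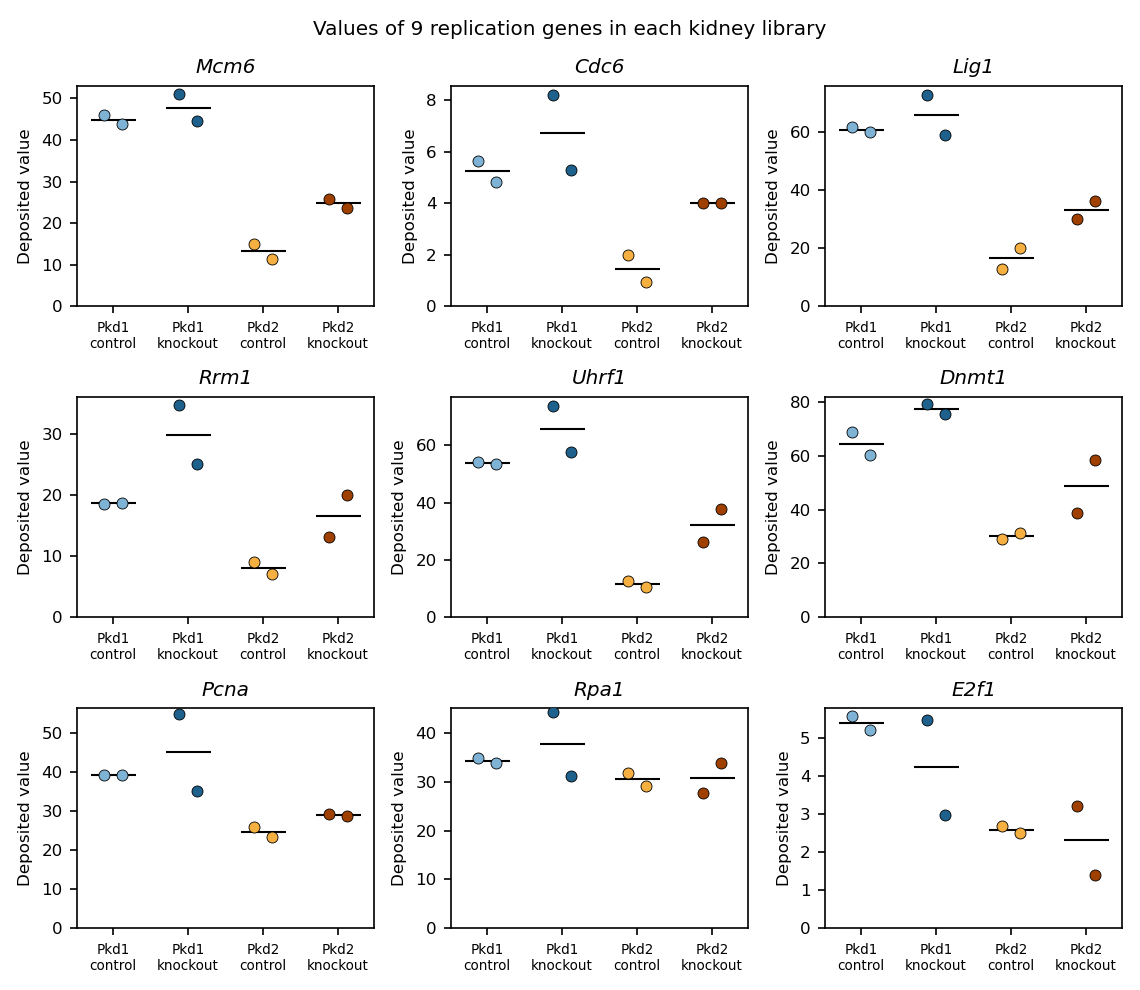
Each point is the deposited value of 1 kidney library and each line the mean of the 2 libraries of a group, for 9 replication genes, with axes from 0. Mcm6, Cdc6, Lig1, Rrm1 and Uhrf1 rose in the Pkd2 knockouts, whereas Dnmt1, Pcna, Rpa1 and E2f1 did not pass the test.

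Set against the day 10 controls, the Pkd2 knockouts stood at a median of 62.7% of that level, from 41.6% (Tk1) to 104% (Rfc4). Both Pkd2 knockouts were below both day 10 controls for 33 genes, against 29.8% of all tested genes, and the exceptions were Gins1, Pola1, Rfc1, Rfc4, Rpa1 and Rrm1. The 13 genes called in neither the age nor the Pkd2 comparison were Gins1, Gins3, Gins4, Pola1, Prim1, Pcna, Rfc1, Rfc2, Rfc4, Rpa1, Rpa2, Tyms and E2f1. They include 4 of the 6 clamp and clamp loader genes and both RPA genes, and none of the 6 MCM2-7 genes.

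Further genes of the pathway were counted by list, to be read against the shares of all tested genes. These were 12.3% called with age (7.26% lower), 17.7% called in the Pkd2 knockouts (9.54% higher) and 10.6% called in the Pkd1 knockouts. Differences between the lists were not tested. Of 9 tested genes for origin recognition and licensing control, such as the ORC subunits, 0 were called with age, in the Pkd2 or in the Pkd1 knockouts, and their median change with age was -0.08; their lowest adjusted p with age was 0.15, and 0 of 9 is near the share over all genes. Of 22 genes of origin firing and the fork, 9 fell with age and 4 rose in the Pkd2 knockouts. Claspin (Clspn), a checkpoint mediator at the fork, fell by 1.95 ± 0.21 with age (adjusted p = 0.0012) and rose by 1.2 ± 0.21 in the Pkd2 knockouts (adjusted p = 0.0063). Dbf4, the activating subunit of the CDC7 kinase that fires origins, rose in the Pkd1 knockouts by 0.80 ± 0.19 (adjusted p = 0.032) and in the Pkd2 knockouts by 0.68 ± 0.19 (adjusted p = 0.041). It was the 1 gene of these 22 called in the Pkd1 knockouts, where 10.6% of all tested genes were called.

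Of 6 histone chaperone genes of S phase, 4 fell with age, and Chaf1b, a subunit of the chromatin assembly factor that works with PCNA, rose by 1.05 ± 0.17 in the Pkd2 knockouts (adjusted p = 0.0054). Of 10 further nucleotide supply genes, 1 rose and 1 fell in each of the age and Pkd2 comparisons, which is near the share over all genes. Shmt1, a folate enzyme, moved in the opposite direction to the replication genes. It rose by 1.26 ± 0.25 with age (adjusted p = 0.013) and fell by 1.29 ± 0.25 in the Pkd2 knockouts (adjusted p = 0.0097). Of 17 regulators of S phase entry, 7 fell with age and 2, near the share over all genes, rose in the Pkd2 knockouts: cyclin A2 (Ccna2, 1.14 ± 0.24, adjusted p = 0.014) and E2f8 (0.80 ± 0.21, adjusted p = 0.032), a repressor among the E2F factors.

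The 10 proliferation markers that act outside replication, in mitosis or chromosome structure, were all called in both comparisons. All 10 fell with age (median -1.56) and all 10 rose in the Pkd2 knockouts (median 1.03). In the Pkd1 knockouts 1 of the 10 was called, near the 10.6% of all tested genes. It was cyclin B1 (Ccnb1), which rose by 0.75 ± 0.17 (adjusted p = 0.029). Mki67, the Ki-67 antigen, was at 61.9 and 59.1 in day 10 controls and 95.4 and 86.4 in Pkd1 knockouts, against 15.8 and 13.1 in day 20 controls and 32.8 and 62.3 in Pkd2 knockouts. Its Pkd2 knockouts exceeded both controls, by 1.59 ± 0.27 (adjusted p = 0.0062), and 1 of them reached the level of the day 10 controls. Summed over the 10 markers, values were 185 and 192, 305 and 234, 51.3 and 47.4, and 113 and 163 by group in that order. Both Pkd1 knockouts were above both controls in this sum, whereas in the sum of the 39 replication genes 1 Pkd1 knockout was above both and the other lay between them.

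**Figure D4:**
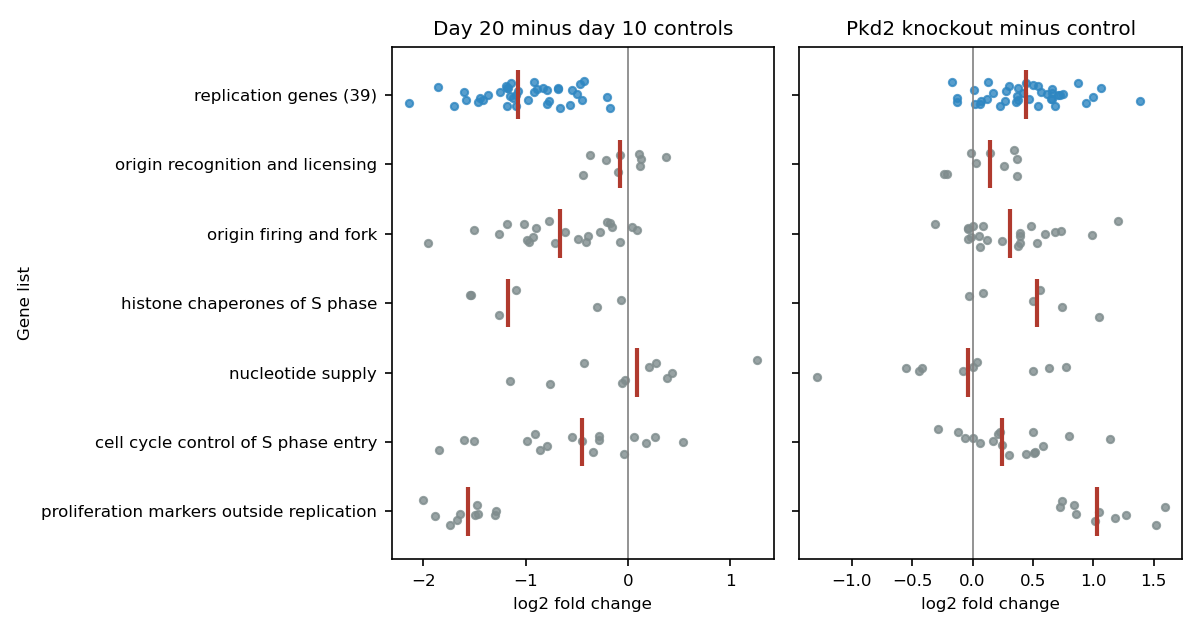
Each point is the log2 fold change of 1 gene, in the comparison of day 20 with day 10 controls and in Pkd2 knockouts, by gene list, with a red bar at the list's median. The medians are -1.07 and 0.44 for the replication genes, -0.08 and 0.14 for origin recognition and licensing, and -1.56 and 1.03 for the proliferation markers.

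In mIMCD-3 cells the question is which genes respond when Hoxb3os is targeted. All 7 replication genes with a row were lower with the Hoxb3os gapmer, where 55.6% of the 2016 deposited genes were lower. The median log2 fold change over all deposited genes was -0.14 by limma. The table was selected by the authors' test of this comparison, and 2015 of its 2016 genes (100% when rounded) were called in a fit within it, so the call of a listed gene adds nothing to its listing. No value is given for the other 32 genes, which had no row. Pola1 had 5308 and 5366 normalised reads with the control gapmer and 4372, 4100.3 and 4123 with the Hoxb3os gapmer. The 3 treated libraries lay at a mean of 78.7% of control, with a log2 fold change in the authors' deposited table of -0.33 (adjusted p = 1.9e-11).

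Mcm6 had 19420.5 and 19967 with the control gapmer and 17444, 16879.6 and 16595 with the Hoxb3os gapmer, or 86.2% of control, with -0.21 in the authors' deposited table (adjusted p = 4.5e-07). Its 3 treated libraries were below both controls. The other 5 genes were lower by less, at 90.7% to 91.4% of control. Their log2 fold changes by limma were -0.13 or -0.14, level with the median of -0.14 over all deposited genes. Pola1 (-0.35) and Mcm6 (-0.21) lay below that median. Pcna had 24435 and 23793, then 22813, 21199 and 21754. Rpa1 had 20856 and 21132, then 19239.7, 19468 and 18840.2. Uhrf1 had 9681 and 10040, then 8871, 9356 and 8826. In none of the 3 did treated and control libraries overlap. Pola2 had 7822 and 8024, then 7244, 7337 and 7092, and Rfc1 had 9892 and 10075, then 9466, 8822 and 8889, again without overlap. In the authors' deposited table the adjusted p of these 5 genes lay between 0.0026 (Rpa1) and 0.018 (Uhrf1).

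The size of these falls depends on scaling. When the reads were scaled anew on the deposited genes alone by DESeq2, fold changes moved up by a median of 0.10 log2 over all deposited genes, the 7 genes ranged from -0.24 to -0.03, and 2 of the 7 were called (Pola1 and Mcm6). Direction held for all 7 under each scaling tried. Of the 10 proliferation markers, 2 had a row in the cell table (Ccnb2 and Kif11), and both were lower. Pola1, Mcm6 and Uhrf1, which hold an E2F word before a start as shown above, are 3 of the 7. The share over the 31 replication genes with a promoter was 29%, and a link to the falls was not tested.

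**Figure D5:**
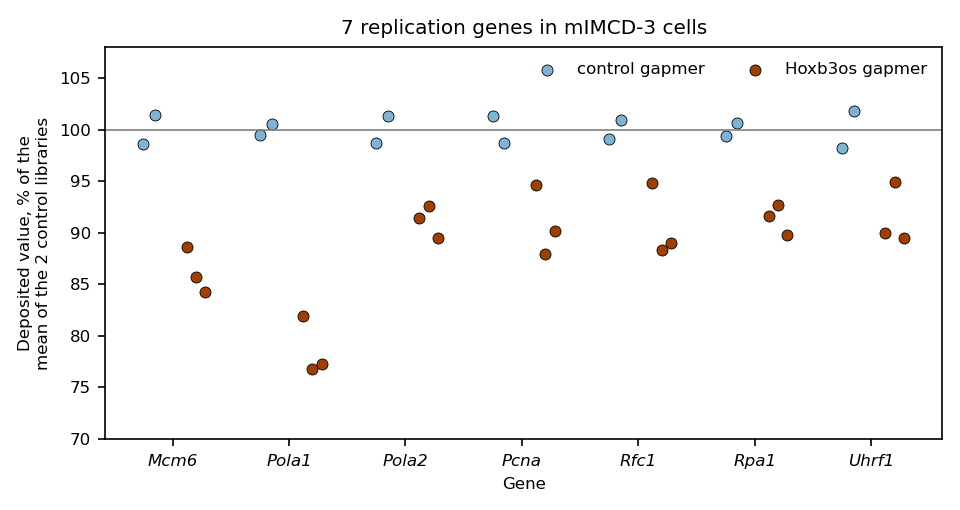
Points are the deposited values of the 7 replication genes in 5 mIMCD-3 libraries as a percentage of the mean of the 2 control gapmer libraries; the vertical axis starts at 70%. Pola1 is lowest at a mean of 78.7%, Mcm6 follows at 86.2%, and the other 5 lie between 90.7% and 91.4%.

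For 12 of the 39 genes an exon overlaps another annotated gene: Mcm7, Cdc45, Gins2, Pole, Rfc2, Rfc4, Rfc5, Fen1, Lig1, Rpa1, Tk1 and Ccne2. In 11 of them the other gene is on the opposite strand. No source used here states whether reads were counted by strand, and their reads cannot be told apart from those of the partner gene. Of the 8 genes called in the Pkd2 knockouts, Lig1 is the 1 affected.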

How the data were processed

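RNA was isolated with Trizol and libraries were made with TruSeq, per the labels. Per the submitters' processing notes, the tools for the kidney table were STAR 2.4.2a, RSEM 1.2.22, edgeR, FastQC 0.11.2 and Cufflinks 2.2.1 (build mm10; roles not stated), and those for the cell table DESeq2 1.12.3, SAMtools 1.0, STAR 2.4.2a and Trimmomatic 0.32 (GRCm38). The titles of the Pkd2 knockouts carry "(WT)", but their genotype holds the Cre, and they were grouped by genotype.

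The deposited kidney values are a signal per gene, reads scaled to library size, whose low values step in whole reads (92.9% to 95.0% of values whole within 0.02 of a read). The deposited cell values are a signal of reads over a size factor (100% whole). The authors also deposited log2 fold changes, taken as control over knockout in kidneys and as Hoxb3os over control gapmer in cells, and adjusted p-values.

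The test kept genes reaching a value of 1 in 2 or more libraries and used limma 3.58.1 (R 4.3.3; trend, 8 libraries in 1 fit of 4 groups) on log2(value + 1), which understates changes of low genes, with Benjamini-Hochberg adjustment and calls below 0.05. The cells had a fit of their own. On recovered reads, edgeR 4.0.16 called 1534 genes for Pkd1, 2382 for Pkd2 and 1763 for age, and DESeq2 1.42.0 called 2203, 3036 and 2285. Values are given as deposited, changes as log2 ± SE.

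The genes, lists and tests were chosen with earlier results of these data known. Values in every library are given for genes called in a knockout or listed in the cell table, for the 6 largest falls with age, and for the gene of largest mean in each role; of each further list, up to 3 called genes. Sequences are RefSeq promoters of GRCm38.p6; gene places and lengths are GENCODE M21. Alternatives were another pseudocount, no filter, quantile scaling, edgeR, DESeq2, a replicate block, a Y-linked covariate, each model alone and each library left out.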

Additional observations from a re-analysis of the deposited data

How the results depend on the processing

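Replication genes called in the Pkd2 knockouts (8) were 2 with no filter, 2 with each model fitted alone, 4 with a replicate block and 2 to 11 leaving out 1 library; other settings gave 6 to 11. Those lower with age (26) were 17 with no filter, 16 with the Y-linked covariate and 7 to 28 leaving out 1 library. For Pkd1 and for the difference of effects the count was 0 in all. In cells (7) it was 2 by DESeq2 and 6 to 7 leaving out 1 library. Over all genes, Pkd1 calls (1550) were 790 with no filter, 2491 with the covariate and 325 to 2474 leaving out 1 library. Pkd2 calls (2587) were 1379 with each model alone and 621 to 4253. Age calls (1801) were 1077 with the covariate and 403 to 2553. Genes called for the difference (1) were 5 with a pseudocount of 0.1, 0 with no filter, 8 with quantile scaling, 5 by edgeR, 184 by DESeq2, 0 with a replicate block, 6 with the covariate and 0 to 26 leaving out 1 library. The cause was not tested.

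Libraries were not treated as pairs by replicate number. The deviations of same-numbered libraries correlated over genes at -0.38 (Pkd1) and -0.05 (Pkd2). Each value rests on 1 replicate difference a group, so it cannot tell whether libraries were paired. With the replicate block, 1044, 1812 and 1226 genes were called for Pkd1, Pkd2 and age, and 22 replication genes for age.

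No called gene changed sign under any alternative. Of uncalled genes, 24 of 39 changed sign under at least 1 alternative for Pkd1, 9 of 31 for Pkd2, 17 of 39 for the difference and 0 of 13 for age. Of those given with a fold change, Rpa1 in the Pkd2 knockouts was -0.01 by edgeR and ranged from -0.13 to 0.15 leaving out 1 library, with -0.05 without day 20 control 2. E2f1 ranged from -0.57 to 0.23 in the Pkd2 and from -0.68 to 0.02 in the Pkd1 knockouts, the highest values without knockout 2 of each model. With 2 libraries a group, depth limits Ccne1, Gins1 and Gins3 most.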
